A study of Caenorhabditis elegans with 10 samples.

Results

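The isp-1 array held RNA of Caenorhabditis elegans carrying isp-1(qm150), a missense mutation in respiratory complex III. It was compared with the wild type array that its label pairs with the missense mutants, 1 array a side and 2 of the 10 arrays of the series. Each gene with a probe set of its own was given as the log2 difference between these arrays, over 12641 genes. Without a replicate array this difference has no test and no error of its own. Values below are therefore effect sizes, and a gene is counted as apart from wild type where the difference reached 2-fold.

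Complex III passes electrons from ubiquinol to cytochrome c in the inner mitochondrial membrane, and isp-1 encodes its Rieske iron-sulfur subunit. Worms with the qm150 allele are known for slow development, low oxygen consumption and a long life span. Impaired electron transport in the worm is known to engage the mitochondrial unfolded protein response, in which chaperones and proteases of the organelle are produced, and enzymes of detoxification and oxidative defence.

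The mutant and its wild type, N2, were grown on OP50 plates for 2 generations and then in liquid culture with K12 bacteria. The other missense mutants, gas-1(fc21) of complex I and mev-1(kn1) of complex II, had the same culture. A second N2 wild type grew on HT115 bacteria throughout, and 5 arrays held N2 fed RNAi bacteria against the complex I genes F22D6.4, Y45G12B.1, C34B2.8, Y56A3A.19 or D2030.4 with 5 mM IPTG. All animals were whole worms, predominantly young adults enriched by sucrose centrifugation, and each array held the pooled RNA of 3 biological replicates. The question was which metabolic pathways lie downstream of a defect in electron transport. The label of the isp-1 array gives the gene, allele and complex of isp-1, but quotes T07C4.7, which is the sequence name of mev-1, as its allele. In whole worms, fewer cells of a type and less RNA per cell cannot be told apart.

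The transcripts of the mutated genes do not test the genotype, since a missense change leaves the messenger RNA in place. The isp-1 transcript stood at 13.80 (log2) in the isp-1 array, 13.62 in the K12 wild type, 13.96 in gas-1 and 13.66 in mev-1. The isp-1 array thus lay among the other arrays for its own gene, and gas-1 and mev-1 transcripts differed from the K12 wild type by 0.17 and 0.08 there.

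Against the K12 wild type, 304 genes stood at least 2-fold higher in isp-1 (2.4% of those compared) and 282 at least 2-fold lower (2.23%). For the same wild type, gas-1 had 457 higher (3.62%) and 356 lower (2.82%), and mev-1 had 539 higher (4.26%) and 392 lower (3.1%). The 3 comparisons share that wild type array. The wild types of the 2 cultures differed by at least 2-fold at 908 genes (7.18%), more than the 586 (4.64%) at which isp-1 differed from the K12 wild type. The median difference over all genes was 0.02 in isp-1, and 54.9% of genes lay above 0.

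Of the 304 higher genes, 197 had their higher value above 5.96, the median of all values on the arrays, 21 had a wild type value under the filter level of 2.60, and 10 passed that filter only through the isp-1 array. Their median difference was 1.43 in isp-1, beside 0.95 in gas-1 and 0.60 in mev-1. Among the 282 lower genes the medians were -1.25 in isp-1, -0.70 in gas-1 and -0.72 in mev-1. Against the HT115 wild type, 205 of the 304 higher genes and 102 of the 282 lower genes also reached 2-fold in the same direction.

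Precision within the arrays could be read from genes with several probe sets. For 2641 such genes the highest and lowest difference between isp-1 and wild type lay a median of 0.18 apart, and 0.51 at the 90th percentile. Of the 64 of these genes whose difference reached 2-fold, 60 had all probe sets on the same side of 0, and 29 had all of them past 2-fold. The spread between arrays of a kind, pooled over the gas-1 and mev-1 pair and the 5 RNAi arrays, had a median SD of 0.30 (5 degrees of freedom), and it holds real differences between those animals.

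The 15 genes standing highest above the K12 wild type held a mitochondrial enzyme, a cytochrome P450, a superoxide dismutase, a C-type lectin and several genes without a textbook role. The largest difference was 6.06, at T20D4.12. It stood at 9.45 in isp-1, 3.39 in the K12 wild type, 2.87 in gas-1, 7.21 in mev-1, 2.82 in the HT115 wild type and 2.77 to 2.92 in the 5 RNAi arrays. The isp-1 and mev-1 arrays were thus high, and the other 8 were low.

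The gene acdh-1 encodes a mitochondrial acyl-CoA dehydrogenase that takes the first step of the propionate shunt, an alternative to vitamin B12-dependent breakdown. It stood at 13.30 in isp-1 and 8.56 in the K12 wild type, a 26.7-fold difference. Values were 13.61 in gas-1, 9.66 in mev-1, 9.61 in the HT115 wild type, and 11.90, 11.43, 9.41, 11.15 and 12.90 in the RNAi arrays in the order of targets given above. Both isp-1 and gas-1 were at the top, mev-1 was level with the HT115 wild type, and the RNAi arrays were spread from that level up to just below isp-1.

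The neighbouring genes pud-3 and pud-4, named for proteins upregulated in insulin receptor mutants, stood at 12.31 and 12.57 in isp-1 and at 7.24 and 8.19 in the K12 wild type. In gas-1 they stood at 10.84 and 10.62, and in mev-1 at 8.77 and 10.29. The RNAi arrays reached from 5.06 to 13.38 for pud-3, so that isp-1 lay inside their range. The HT115 wild type was the lowest of the 10 arrays for pud-3, at 4.58.

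Other genes of the 15 were high in gas-1 too but not in mev-1. The cytochrome P450 gene cyp-14A1 stood at 7.79 in isp-1 and 8.37 in gas-1, against 3.50 in the K12 wild type and 3.42 in mev-1. Likewise Y49G5A.1 stood at 6.53 and 7.38 against 2.27 and 2.26, and F57G8.7 at 6.46 and 6.94 against 2.23 and 2.22. At these genes, and at the C-type lectin clec-190 and nspe-1, of a nematode-specific peptide family, mev-1 lay low beside the K12 wild type.

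Of the rest of the 15, rnh-1.3, of the ribonuclease H family, was high in all 3 missense mutants, at 10.92 in isp-1, 10.56 in gas-1 and 10.65 in mev-1 against 6.77 in their wild type. The differences of sysm-1 were 4.83 in isp-1, 4.28 in gas-1 and 2.81 in mev-1. The differences of F45D11.1 were 4.63 in isp-1, 1.94 in gas-1 and -1.29 in mev-1. C17F4.7, F40D4.13 and sod-5 complete the 15, at 3.85, 4.65 and 4.13.

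The 15 lowest genes included ZK218.5, the lowest, and ZK218.7, neighbours with 1 gene between them. ZK218.5 stood at 2.17 in isp-1, 2.79 in gas-1 and 1.73 in mev-1, against 9.18 in the K12 wild type, 7.07 in the HT115 wild type and 9.36 to 10.44 in the RNAi arrays. All 3 missense mutants were low and the other 7 arrays were high. How many of all genes had this layout was not counted. ZK218.7 had the same layout, at 2.16, 2.23 and 1.92 in the mutants and 5.95 to 10.15 elsewhere, and F40D4.13, high in isp-1, lies within 4 protein-coding genes of both.

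C23G10.11 stood at 2.43 in isp-1 and 8.79 in the K12 wild type, and T22F3.11 at 5.32 and 10.93. Both were also low in gas-1 and mev-1, with differences of -4.81 and -4.56 for C23G10.11 and -4.4 and -4.93 for T22F3.11. Their K12 wild type value was the highest of the 10 arrays, and the HT115 wild type stood at 5.74 and 6.46. The lipase gene fil-1, known from fasting, stood at 4.72 in isp-1, 4.73 in gas-1 and 6.03 in mev-1, against 8.13 in their wild type.

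A further group was low in isp-1 and near wild type in gas-1 and mev-1. The adjacent genes K08D10.14 and R07C12.1 differed from wild type by -2.67 and -3 in isp-1, by -0.05 and -0.40 in gas-1 and by -0.67 and -0.02 in mev-1. F49H6.5 differed by -2.68 in isp-1, -0.54 in gas-1 and 0.25 in mev-1. Against the HT115 wild type the difference of R07C12.1 was -0.92. T05H4.4 differed by -3.11 in isp-1, 0.98 in gas-1 and -3.34 in mev-1, so that isp-1 and mev-1 were both low. The HT115 wild type was as low as these, at 3.19, against 6.35 in the K12 wild type.

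**Figure D1:**
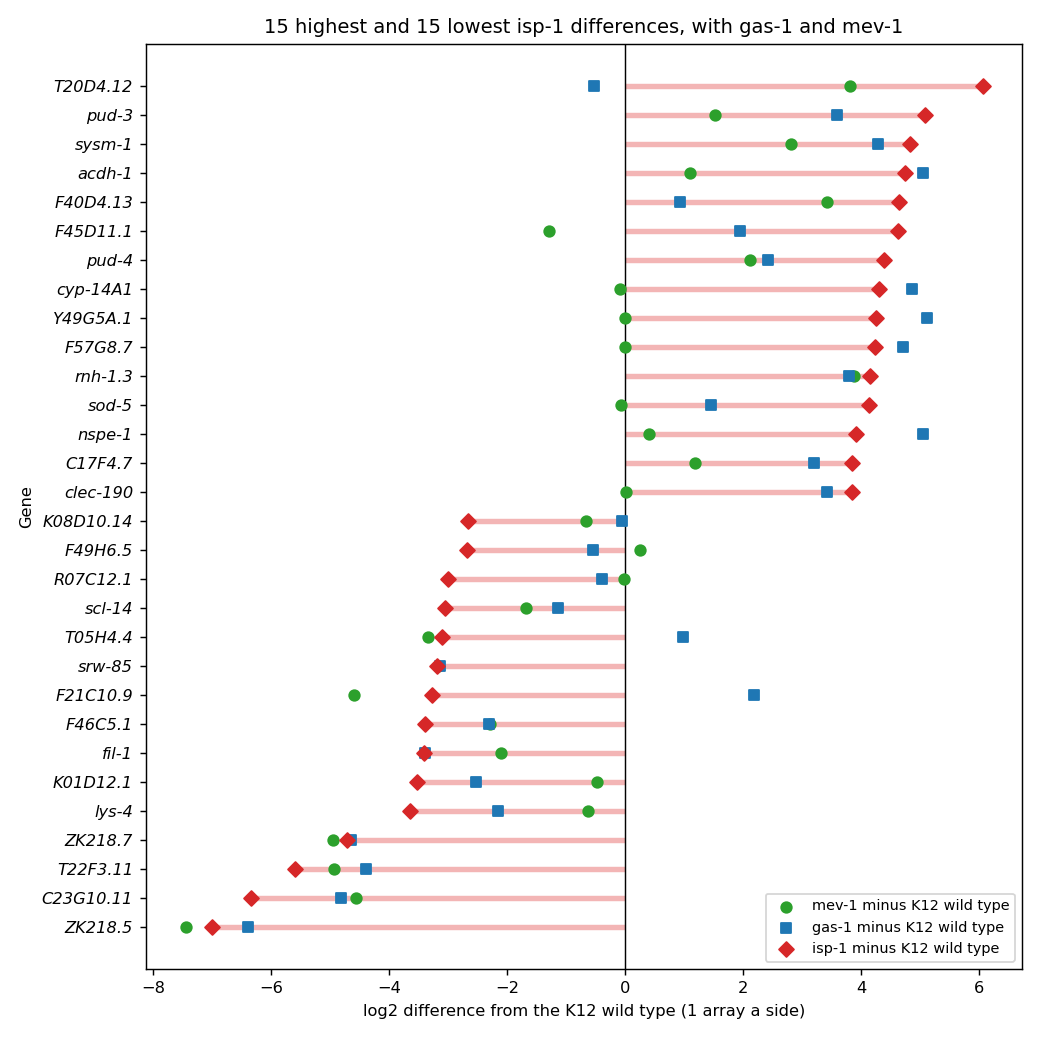
The log2 difference from the K12 wild type, 1 array a side, for the 15 genes highest and the 15 lowest in isp-1 (red diamonds and bars), with gas-1 (blue squares) and mev-1 (green circles) at the same genes; the genes were ranked on the isp-1 values. At ZK218.5 all 3 mutants lay far below 0, whereas at cyp-14A1 the isp-1 and gas-1 points lay together at the right and mev-1 at 0.

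At 21 genes (0.166%) isp-1 was the highest of the 10 arrays by at least 1 on the log2 scale, and at 7 (0.0554%) it was the lowest by as much. The same shares were 0.649% and 0.103% for gas-1, 0.823% and 0.562% for mev-1, 0.0316% and 0.0396% for the K12 wild type, and 2.86% and 1.13% for the RNAi array of D2030.4. The 21 genes held 2 superoxide dismutases, sod-3 and sod-5, 3 chaperones, hsp-70, hsp-12.3 and hsp-16.20, the glutathione S-transferase gst-15 and 2 BTB-and-MATH genes. Of the 21, 5 passed the filter on low values only through the isp-1 array.

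**Figure D2:**
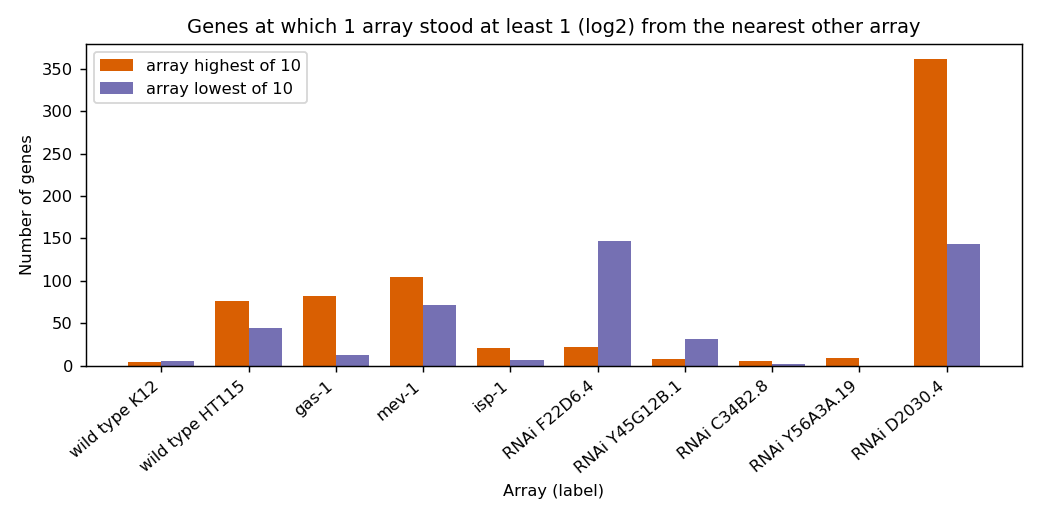
The number of genes at which each of the 10 arrays was the highest (orange) or the lowest (purple) by at least 1 on the log2 scale. The isp-1 bars, at 21 and 7, are short beside those of gas-1, at 82 and 13, and of D2030.4 RNAi, at 361 and 143.

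The gene sod-3 encodes a manganese superoxide dismutase of the mitochondrial matrix and is a known target of the transcription factor DAF-16. It stood at 10.14 in isp-1, 6.84 in the K12 wild type, 7.18 in gas-1, 6.36 in mev-1, 4.46 in the HT115 wild type, and 6.59, 7.41, 8.14, 7.57 and 5.84 in the RNAi arrays. The isp-1 array was above all others, by 2.00 from the nearest, the C34B2.8 RNAi array. It was 9.84-fold above the K12 wild type, and 3.38 ± 0.90 (SE, log2) above the mean of gas-1 and mev-1 in the limma fit described below (adjusted p = 0.904).

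The gene sod-5 encodes a copper-zinc superoxide dismutase of the cytosol. It stood at 7.20 in isp-1, 3.07 in the K12 wild type, 4.52 in gas-1, 3.00 in mev-1, 2.44 in the HT115 wild type, and 3.02, 3.07, 3.44, 3.05 and 2.14 in the RNAi arrays. Here gas-1 was the nearest array and isp-1 lay 2.69 above it. The fold over the K12 wild type was 17.5, and the difference from gas-1 and mev-1 was 3.44 ± 0.67 (SE) with a limma adjusted p of 0.399.

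The other measured enzymes of this family did not share these sizes. The principal dismutases sod-1, of the cytosol, and sod-2, of mitochondria, stood 0.30 and 0.34 above the K12 wild type, sod-4, which is secreted or membrane-bound, stood at -0.41, and the peroxisomal catalase ctl-2 at 0.05. Against the HT115 wild type sod-2 stood at -0.57.

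Chaperones of the cytosol followed. The heat-inducible hsp-70 stood at 8.56 in isp-1, 4.87 in the K12 wild type, 7.52 in gas-1, 5.91 in mev-1, 4.43 in the HT115 wild type, and 6.17, 5.20, 6.37, 5.70 and 3.91 in the RNAi arrays. The small heat shock gene hsp-12.3 stood at 12.54 in isp-1, 10.10 in the K12 wild type, 10.82 in gas-1, 7.52 in mev-1, 9.47 in the HT115 wild type, and 10.80, 9.33, 11.09, 9.99 and 8.45 in the RNAi arrays. For both, isp-1 was the highest array, with gas-1 among the higher of the others, and mev-1 was the lowest array for hsp-12.3. The hsp-70 probe set is of the type that Affymetrix marks as matching more than a single transcript.

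Of the 13 small heat shock and inducible Hsp70 genes, 6 stood at least 2-fold higher in isp-1 (2.4% of all genes did) and none at least 2-fold lower (2.23%). By the same measure 6 were higher and 2 lower in gas-1, and 3 and 3 in mev-1. The median was 0.40 in isp-1, beside 0.73 in gas-1 and -0.02 in mev-1. Among the hsp-16 genes, hsp-16.2 was highest in gas-1, at 7.90 against 4.67 in the K12 wild type, with isp-1 1.44 above the latter. By contrast hsp-16.20 was highest in isp-1, at 5.57 against 4.08 in gas-1 and 2.78 in the K12 wild type. Of the other members, hsp-12.1 and hsp-12.2 stood at -0.93 and -0.84, and sip-1, a small heat shock protein of the germ line, at 0.00.

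The gst-15 gene encodes a glutathione S-transferase, an enzyme that couples glutathione to reactive compounds. It stood at 8.18 in isp-1, 5.49 in the K12 wild type, 6.68 in gas-1, 3.86 in mev-1, 5.61 in the HT115 wild type, and 5.86, 5.11, 6.15, 5.53 and 2.68 in the RNAi arrays. The isp-1 value was the highest, 1.5 above gas-1, while mev-1 lay below both wild types. F35F10.6 and F40D4.13 were likewise highest in isp-1, at 6.4 and 7.19, with mev-1 next at 5.01 and 5.97. F35F10.7, adjacent to F35F10.6, stood at 6 in isp-1, 5.11 in mev-1, 4.83 in gas-1 and 2.79 in the K12 wild type.

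On the low side, lys-4, a lysozyme gene, had the largest difference from the K12 wild type among the 7 genes. It stood at 8.46 in isp-1, 12.11 in the K12 wild type, 9.96 in gas-1, 11.48 in mev-1, 11.31 in the HT115 wild type, and 11.79, 10.79, 10.55, 11.50 and 12.45 in the RNAi arrays. The isp-1 array lay 3.65 (log2) below the K12 wild type, a signed difference of -3.65, and 1.5 below gas-1, the next lowest. The lys-4 probe set is also marked as matching several transcripts. Other named genes, such as ech-6 and cyp-13B1, also have probe sets of marked types, which are not pointed out each time.

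D1086.5 stood at 6.13 in isp-1 and between 7.65 and 8.76 in the other 9 arrays. The gene pqn-75, named for a prion-like glutamine- and asparagine-rich domain, stood at 6.58 in isp-1 and between 7.90 and 9.23 elsewhere, and srlf-30 at 6.73 and between 7.87 and 9.48. The isp-1 array lay below the range of the other 9 at these genes. A second probe set of srlf-30 differed from the K12 wild type by -0.66, where the one given differed by -1.81. Smaller gaps were found for F19C7.2, at 5.56 below a range from 6.26 to 8.17, for bath-40, at 6.88 below 7.61 to 8.40, for the cullin gene cul-5, at 7.56 below 8.28 to 8.85, and for the bestrophin gene best-21, at 5.58 below 6.22 to 7.88.

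**Figure D3:**
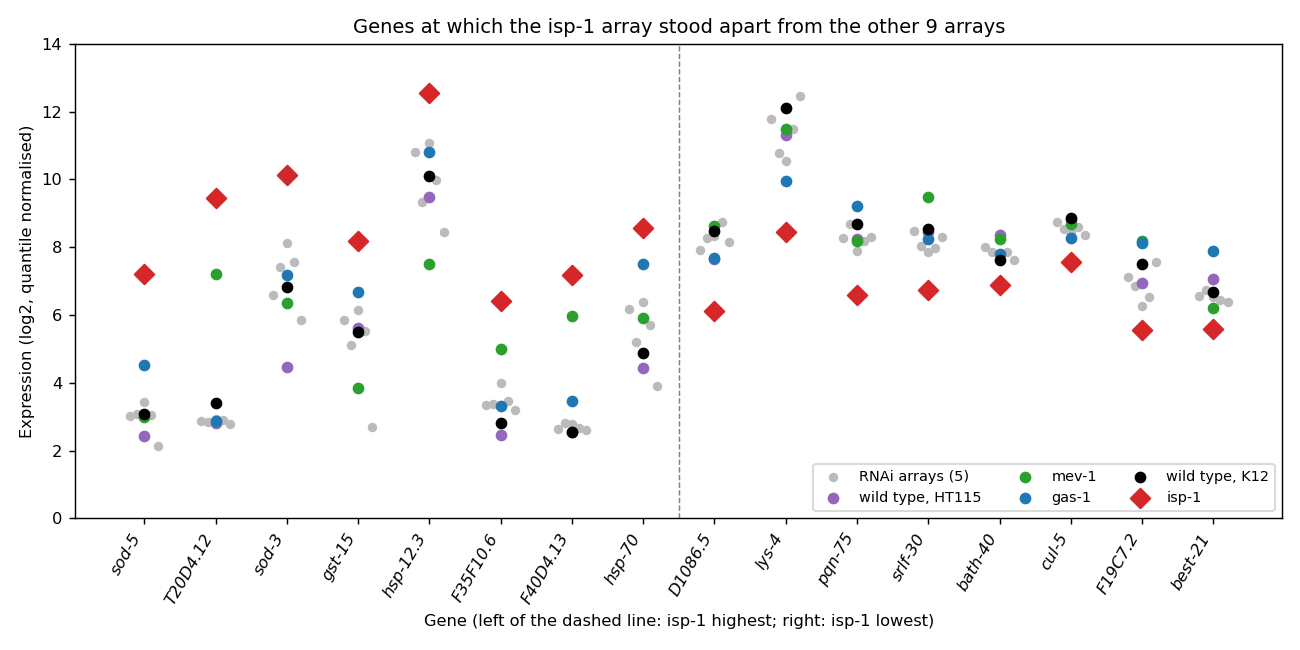
Quantile-normalised log2 values of the 10 arrays for the 8 genes where isp-1 (red diamonds) exceeded all other arrays by most, left of the dashed line, and the 8 where it lay below all others by most, among genes at which the higher of isp-1 and the nearest other array lay above 5.96; grey points are the 5 RNAi arrays. The sod-3 and sod-5 diamonds lie 2.00 and 2.69 above the nearest other array, and the lys-4 diamond 1.5 below it.

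The isp-1 array was next set against the gas-1 and mev-1 arrays, to see what separates it from the other missense mutants. It stood at least 2-fold above both at 94 genes (0.744%) and at least 2-fold below both at 115 (0.91%). The same count was 191 and 93 for gas-1 (1.51% and 0.736%) and 320 and 279 for mev-1 (2.53% and 2.21%), so isp-1 had the fewest genes above both others. Of the 94 genes, 65 also differed from the K12 wild type by at least 2-fold and 16 lay within 0.5 (log2) of it. Of the 115 genes below both, 47 differed from the wild type and 40 lay within 0.5 of it, where gas-1 and mev-1 were the arrays away from wild type.

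The test of this difference was a limma fit over all 12641 genes and 5 groups of arrays, in which the lone isp-1 array was assumed to vary like the others. The spread came from the gas-1 and mev-1 pair and from RNAi arrays of different targets, not from repeats of isp-1. The fit called 8 genes higher in isp-1 than the mean of gas-1 and mev-1 (0.0633%) and 0 lower, at an adjusted p under 0.05 (Benjamini-Hochberg). Of the 8, 4 passed the filter on low values only through the isp-1 array, so their calls carry no weight. With the filter set on the other 9 arrays 2 were called, and with the filter at the median, or with the spread taken from gas-1 and mev-1 alone, 0 were called. At an unadjusted p under 0.05 it had 176 higher (1.39%) and 167 lower (1.32%), and at least 2-fold 248 stood higher (1.96%) and 355 lower (2.81%). In simulated data this fit recovered 80 of 663 changes of 2-fold, 49.8% of 4-fold and 73.9% of 8-fold changes, with 5.7 false calls on average.

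The 8 genes were djr-1.2, K09C6.9, bath-45, bath-13, F46F5.15, F55G11.2, nep-14 and W03B1.3, which fall outside the naming rule by their low levels and are named here after their values were seen. The first, djr-1.2, is a worm homologue of DJ-1. It stood at 5.89 in isp-1 and 1.85 to 2.55 in the other 9 arrays. K09C6.9 stood at 5.77 in isp-1 and 2.27 to 3.14 elsewhere. These genes, F46F5.15 and F55G11.2 are the 4 that passed the filter only through isp-1, and no test is given for them. F46F5.15 stood 1.86 above the mean of gas-1 and mev-1, and F55G11.2 stood 1.38 above it. The BTB-and-MATH domain genes bath-45 and bath-13 were higher by 2.49 and 2.29, from values near 2.6 and 2.8 in gas-1 and mev-1. They were the 2 that were still called with the filter set on the other 9 arrays. W03B1.3 was higher by 0.98.

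The gene nep-14, of the neprilysin family of membrane metallopeptidases, was 1.27 above gas-1 and mev-1, but its value in isp-1, 4.02, was that of both wild types, 3.91 and 3.98. All 8 genes from the fit were faint, with isp-1 levels from 3.61 to 5.89, below the median of all values, and pooled SDs from 0.02 to 0.10. Those SDs came from gas-1, mev-1 and RNAi arrays at still lower values, near the filter level of 2.60. They do not measure how a lone isp-1 array varies, so only sizes are given for these genes. Without gas-1 33 genes were called higher and 38 lower, without mev-1 15 and 22, and without the C34B2.8 or the Y56A3A.19 RNAi array 5 higher.

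Among genes above the median level, the smallest p of the same fit belonged to genes that did not pass the threshold. On the higher side these were sod-5, F35F10.7, F07C4.6, rpt-6, an ATPase of the proteasome, and asp-13, an aspartyl protease, with limma adjusted p from 0.395 to 0.897. F07C4.6 stood at 8.44 in isp-1, 7.78 in the K12 wild type, 5.88 in gas-1 and 5.41 in mev-1. On the lower side R03H10.6 stood at 2.14 in isp-1 and in the K12 wild type, against 6.60 in gas-1 and 4.91 in mev-1 (limma adjusted p = 0.201). F14F9.4 stood at 5.43 and 5.39, against 7.64 and 7.33 (limma adjusted p = 0.194). For these and for Y58A7A.4, Y75B8A.28 and txt-17, isp-1 lay within 0.85 of the wild type, and gas-1 and mev-1 lay above both.

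The respiratory chain came next, by complex. Of the 10 measured subunits of complex III, 9 stood higher than in the K12 wild type and 1 lower, with a median of 0.18, and none reached 2-fold. Over all genes the median was 0.02, and 54.9% stood higher. The core subunit gene ucr-2.2 had the largest difference, at 10.57 against 9.85. Cytochrome c1, cyc-1, differed by 0.11, and the other core subunits ucr-1, ucr-2.1 and ucr-2.3 by 0.10, 0.15 and -0.05. The list's median was 0.44 in gas-1 and 0.08 in mev-1.

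The other complexes gave small differences on the same side, with counts to be read beside the 54.9% of all genes that were higher. Of 33 complex I subunits, 31 were higher, with a median of 0.19, beside 0.36 in gas-1 and 0.05 in mev-1. All 5 complex II subunits were higher, with a median of 0.33, beside 0.45 in gas-1 and -0.09 in mev-1. The flavoprotein sdha-1 was 0.73 above the wild type. Of 12 complex IV subunits and assembly factors, 11 were higher at a median of 0.23, beside 0.32 in gas-1 and -0.05 in mev-1. Of 14 ATP synthase subunits, 11 were higher at a median of 0.07, beside 0.23 in gas-1 and -0.04 in mev-1. None of these genes reached 2-fold. Both cytochrome c genes were within 0.16 of wild type in isp-1, whereas cyc-2.2 stood at 6.90 there and at 7.62 in gas-1 and 7.91 in mev-1. These values lay inside the range of cyc-2.2 in the RNAi arrays, 3.79 to 9.20. Its SD between arrays of a kind was 1.87.

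The mitochondrial unfolded protein response had the highest median of the 51 gene lists, 0.44, and protein import the next, 0.42. Of the 14 genes of the response, 13 were higher and 1 lower, and of the 14 import genes all were higher, beside 54.9% of all genes. Medians for the response were 0.35 in gas-1 and -0.05 in mev-1, and for import 0.35 and 0.09. The chaperone hsp-6, the mitochondrial Hsp70, stood at 11.30 in isp-1, 10.25 in the K12 wild type, 11.21 in gas-1, 10.52 in mev-1, 10.01 in the HT115 wild type, and 10.88, 10.71, 11.19, 10.60 and 11.03 in the RNAi arrays. It was highest in isp-1, by a margin smaller than the SD of 0.31 between arrays of a kind, and both wild types were the lowest.

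Other members of the response were closer to wild type. The chaperonin hsp-60 differed by 0.34, the cochaperone dnj-10 by 0.62, the protease spg-7 by 0.71, the prohibitin phb-2 by 0.57 and the transcription factor atfs-1 by 0.43. The homeobox gene dve-1 was the member below wild type, at -0.41. In protein import, timm-23, the channel of the inner membrane, stood at 11.02 in isp-1, 10.00 in the K12 wild type, 11.69 in gas-1 and 10.40 in mev-1. Against the HT115 wild type the import median was 0.12, and that of the response was 0.52.

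Mitochondrial ribosomal proteins were higher at 52 of 57 genes, with a median of 0.18, and cytosolic ribosomal proteins at 66 of 74, with a median of 0.07. Of all genes, 54.9% were higher. The mitochondrial list was higher at 49 genes in gas-1 (0.16) and 37 in mev-1 (0.05). The cytosolic list was higher at 69 in gas-1 (0.10) and 65 in mev-1 (0.10). Against the HT115 wild type the isp-1 medians of these lists were 0.01 and 0.06. Proteasome subunits were at 0.03 and chaperones of the endoplasmic reticulum at -0.03. The 10 genes of the hypoxia factor HIF-1 pathway and of hydrogen sulfide handling had a median of 0.13 with none past 2-fold. The list of 9 regulators known from genetic studies of isp-1 life span, which holds daf-16, aak-2, skn-1, cep-1 and the apoptosis genes ced-3, ced-4 and ced-9, had a median of 0.04. The farthest of these were aak-2, the catalytic subunit of AMP-activated kinase, at -0.56 and atfs-1 at 0.43. The K12 wild type was the highest of the 10 arrays for aak-2. Against the HT115 wild type aak-2 differed by -0.02 in isp-1, and gas-1 differed from the K12 wild type by -0.60.

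**Figure D4:**
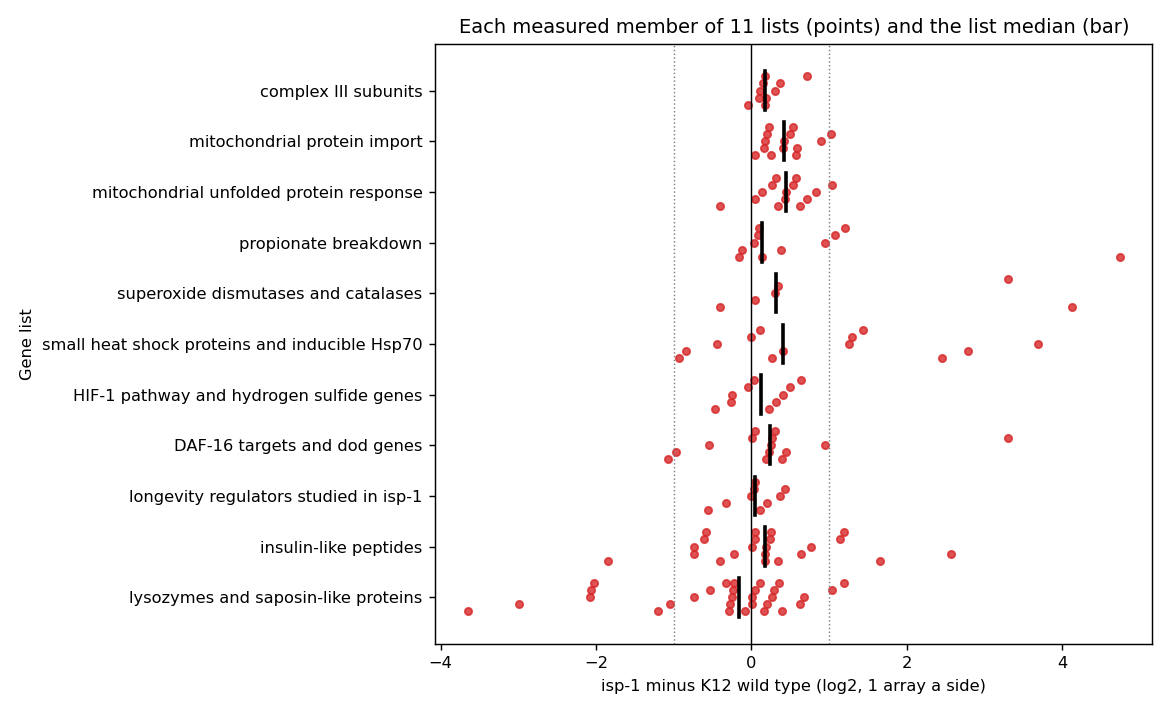
The log2 difference between isp-1 and the K12 wild type for each measured gene of 11 lists (points), with the list median (black bar) and dotted lines at 2-fold. In protein import all 14 points lie above 0, while in superoxide dismutases and catalases sod-3 and sod-5, at 3.30 and 4.13, lie far from the other 4 points.

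In metabolism, the propionate shunt was high and the canonical propionate pathway was not. Beside acdh-1, the enoyl-CoA hydratase ech-6 stood at 12.01 in isp-1 against 10.81 in the K12 wild type, hphd-1 at 11.41 against 10.33, and hach-1 at 9.98 against 9.05. The gas-1 array had differences of 1.16, 1.22 and 1.12 at these 3 genes, and mev-1 of 0.33, -0.38 and -0.02. The last gene of the shunt, alh-8, differed by 0.09. Of the vitamin B12-dependent pathway, the carboxylase genes pcca-1 and pccb-1 differed by -0.16 and 0.10, and the mutase gene mmcm-1 by 0.03.

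Over the pathways of central metabolism the medians were 0.11 for the tricarboxylic acid cycle, -0.02 for glycolysis, 0.36 for the pentose phosphate pathway and 0.01 for the glyoxylate cycle with gluconeogenesis, with no gene past 2-fold. The largest member differences were 0.82 for aconitase, aco-2, 0.59 for the glycolytic isomerase gpi-1 and 0.54 for rpia-1 of the pentose phosphate pathway. At aco-2 and gpi-1 the differences were 0.72 and 0.59 in gas-1, and 0.27 and 0.18 in mev-1. Of 36 beta-oxidation genes, 24 were higher, beside 54.9% of all genes, and 4 of them at least 2-fold, beside 2.4%. At least 2-fold higher were 3 in gas-1 and 4 in mev-1. In fatty acid synthesis the synthase fasn-1 stood at -0.64, and the desaturase fat-3 at -0.52.

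The counts of detoxification genes are to be read beside the 2.4% of all genes that stood at least 2-fold higher and the 2.23% that stood lower. Of 33 glutathione S-transferases, 5 stood at least 2-fold higher and 1 at least 2-fold lower, with gst-4, a known target of SKN-1, at 7.78 against 5.44. The K12 wild type was the lowest of the 10 arrays for gst-4, and isp-1 stood 0.50 above the HT115 wild type, short of 2-fold. Of 55 UDP-glucuronosyltransferases, 9 stood at least 2-fold higher and 1 lower, led by ugt-13, at 7.03 against 3.43, and ugt-61, at 7.66 against 4.66. Of 51 cytochrome P450 genes, 9 were higher and 3 lower by that measure, and cyp-13B1 was at 10.16 in isp-1, 9.29 in gas-1 and 6.94 in the K12 wild type. In the same order of lists, 7, 17 and 11 genes stood at least 2-fold higher in gas-1 and 2, 3 and 3 lower. In mev-1, 3, 12 and 2 stood higher and 5, 4 and 2 lower. The list medians were 0.36, 0.24 and 0.06 in isp-1, 0.34, 0.54 and 0.18 in gas-1, and -0.12, 0.20 and -0.07 in mev-1. The cadmium-responsive genes cdr-2 and cdr-4 stood 2.67 and 1.94 above wild type in isp-1 and 2.76 and 2.86 in gas-1. The metallothioneins mtl-1 and mtl-2 stood at 0.39 and 0.15.

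Insulin-like peptides, the ligands of the DAF-2 receptor, differed from each other. Of 22 genes, 4 stood at least 2-fold higher and 1 at least 2-fold lower, beside 2.4% and 2.23% of all genes. By the same measure 4 were higher and 1 lower in gas-1, and 5 and 0 in mev-1. The gene ins-35 stood at 11.35 in isp-1, 8.79 in the K12 wild type, 10.15 in gas-1, 10.31 in mev-1, 6.97 in the HT115 wild type, and 8.68, 10.38, 10.86, 10.48 and 11.51 in the RNAi arrays. The mutants were thus above both wild types save for a single RNAi array, F22D6.4, and isp-1 was the second highest.

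For ins-33, isp-1 stood at 8.95 against 7.29 in the K12 wild type, with gas-1 and mev-1 at 7.38 and 7.33. The RNAi arrays stood at 6.54, 7.82, 8.46, 8.20 and 9.40, so that D2030.4 lay above isp-1. The agonist daf-28 stood at 6.28 against 5.08. By contrast ins-7, an agonist known as a target of DAF-16, stood at 5.99 in isp-1, 7.84 in the K12 wild type, 8.74 in gas-1 and 8.06 in mev-1. Its RNAi values were 7.61, 7.42, 5.75, 6.63 and 5.35, so that C34B2.8 and D2030.4 lay below isp-1. Over all genes, 701 (5.55%) lay below the wild type in isp-1 and above it in both other mutants, and 1199 (9.49%) had the reverse layout. The 14 measured DAF-16 targets and dod genes had a median of 0.24, with sod-3 past 2-fold on the higher side and dod-23, at -1.08, on the lower side.

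Of 30 lysozymes and saposin-like proteins, which act in intestinal defence, 7 were at least 2-fold lower and 2 at least 2-fold higher, beside 2.23% and 2.4% of all genes. The lower count was 5 in gas-1 and 6 in mev-1, against the same wild type array, and 4 were higher in each. After lys-4 the gene ilys-3, an invertebrate-type lysozyme, stood at 9.03 in isp-1, 11.06 in the K12 wild type, 10.87 in gas-1, 9.89 in mev-1, and 8.49 where the wild type grew on HT115. Here the HT115 wild type was lower than isp-1, and the same was found for spp-11, at 4.77 in isp-1, 6.84 in the K12 wild type and 2.55 in the HT115 wild type. The secreted SCP-like gene scl-14 stood at 3.94 against 6.99, below all other arrays, and the lowest of those was 5.32 in mev-1. Among C-type lectins, 7 of 94 were at least 2-fold higher and 13 lower, beside the same 2.4% and 2.23%. In gas-1 13 were higher and 13 lower, and in mev-1 7 and 15. Examples in isp-1 were clec-60 at 8.76 against 11.32 and clec-17 at 9.89 against 7.55.

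Nuclear hormone receptors, ligand-binding transcription factors, were 4 higher and 1 lower by at least 2-fold among 161 genes, 4 being close to the 2.4% of all genes and 1 being under the 2.23%. The member farthest from wild type was nhr-115, at 7.02 in isp-1, 3.88 in the K12 wild type, 7.48 in gas-1 and 4.74 in mev-1. F-box and MATH-BATH genes were 10 higher and 6 lower among 244. Cuticle collagens were 8 higher and 7 lower among 135, with col-176 at 11.91 against 9.67 and col-51 at 7.4 against 9.30.

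**Figure D5:**
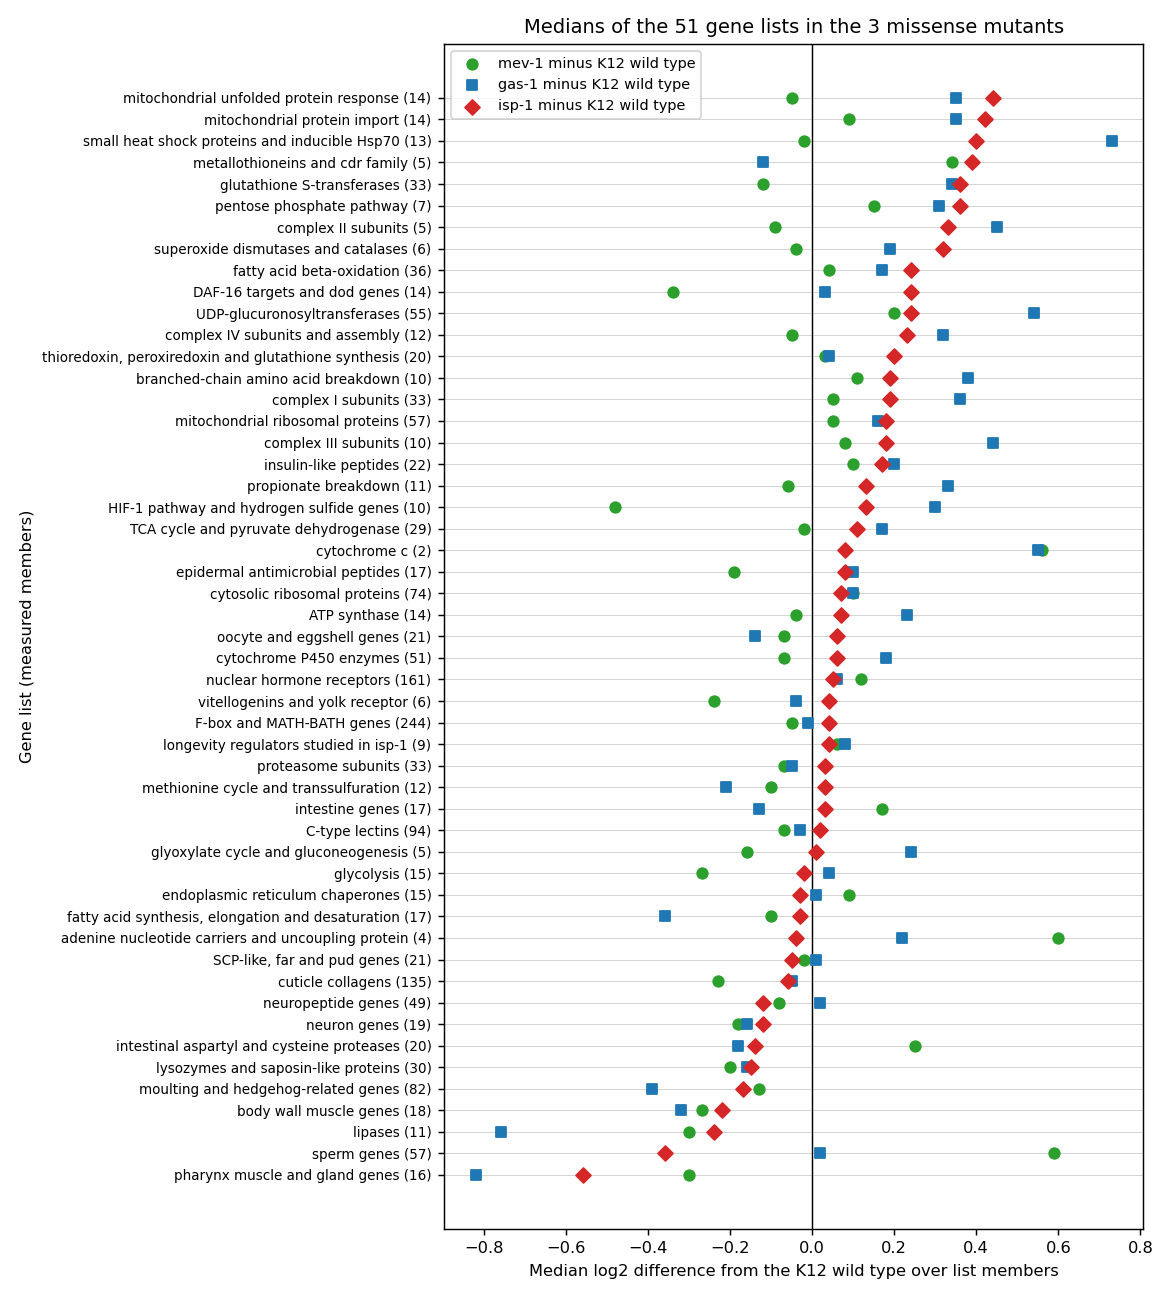
Median log2 difference from the K12 wild type over the measured members of each of 51 gene lists, for isp-1 (red diamonds), gas-1 (blue squares) and mev-1 (green circles), ordered by the isp-1 median. The isp-1 medians reach from -0.56 for pharynx genes to 0.44 for the mitochondrial unfolded protein response, where gas-1 lies at 0.35 and mev-1 at -0.05.

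Markers of tissues and stage were listed to show what the whole worms held. Sperm genes were lower at 49 of 57 members in isp-1, with a median of -0.36, while 31 were higher in gas-1 and 56 in mev-1, with medians of 0.02 and 0.59. Summed over the list, their log2 level was 16.51 in isp-1, 16.88 in the K12 wild type, 16.32 in the HT115 wild type, 16.86 in gas-1, 17.40 in mev-1 and 13.87 to 17.87 in the RNAi arrays. The isp-1 array lay between the wild types, and mev-1 above both. Oocyte and eggshell genes had a summed level of 17.13 in isp-1 and 17.10 in the K12 wild type, and vitellogenins 17.08 in both.

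Pharynx genes were lower at 15 of 16 members, with a median of -0.56, and body wall muscle genes at 17 of 18, with a median of -0.22. Both other missense mutants lay on the same side of this wild type array. Pharynx genes were lower at 15 members in gas-1 (median -0.82) and 15 in mev-1 (-0.30). Body wall muscle genes were lower at 17 in gas-1 (-0.32) and 18 in mev-1 (-0.27). Of all genes, 54.9% lay above 0 in isp-1. The summed pharynx level was 13.67 in isp-1, 13.91 in the K12 wild type and 13.55 in the HT115 wild type, and that of body wall muscle 16.88, 17.12 and 17.03. Neuron genes had a median of -0.12 and neuropeptide genes of -0.12, but both medians lay above the HT115 wild type, at 0.30 and 0.99. The intestine list had a summed level of 17.67 in isp-1 and 17.73 and 17.72 in the wild types. No list had a defining marker at 0, since log2 values on these arrays do not reach it, and the part of tissue makeup in the differences above was not tested.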

How the data were processed

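The deposited values were read as log2 expression values from their range of 1.43 to 16.01. The labels do not say how the authors summarised and normalised these log2 values. Array medians differed by 0.13, so quantile normalisation was applied across all 10. From the 22625 probe sets, 77 controls, 887 with several gene symbols and 895 with none were left out. Names came from the platform annotation and RefSeq (WBcel235, 20701 of 20766 probe sets matched, names and gene order only). Probe sets with a mean under 2.60, the 25th percentile, were left out, and a gene was given by its probe set of highest mean, which left 12641 genes. Signal over background was not analysed here. Precision is limited by having 1 array for each condition.

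The isp-1 and K12 wild type arrays were compared by size. The contrast of isp-1 with gas-1 and mev-1 came from limma 3.58.1 in R 4.3.3 (5 groups, 5 residual degrees of freedom, mean-variance trend, Benjamini-Hochberg, two-sided, tested on 10 simulated data sets with 200 changed genes). The spread behind its p-values is that between arrays of a kind, real differences included. The members and the 51 gene lists were chosen with earlier results of these data known. Genes were named by rule, among those with the higher value above the median of all values, 5.96: the mutated genes, the 15 highest and 15 lowest against the K12 wild type, up to 4 per list with the largest difference, the genes called by limma (or the 5 smallest p per direction), and the 8 largest gaps per direction to the nearest of the other 9 arrays (the higher of the 2 values compared above 5.96). Other genes were named after their values were seen, to complete a family or a pathway. Alternatives were other normalisations, filters, probe set rules, controls and fits, and arrays left out.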

Additional observations from a re-analysis of the deposited data

Results flagged for a closer look

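Some gene lists had an isp-1 median on the other side of 0 from both gas-1 and mev-1, a difference that was not tested. Sperm genes were at -0.36 in isp-1, adenine nucleotide carriers and uncoupling protein at -0.04, and endoplasmic reticulum chaperones at -0.03, where the other mutants lay above 0. Oocyte and eggshell genes were at 0.06, vitellogenins with the yolk receptor at 0.04, F-box and MATH-BATH genes at 0.04, proteasome subunits at 0.03, the methionine cycle at 0.03 and C-type lectins at 0.02, where the others lay below 0. All but the sperm median were under 0.1 in size, beside a median of 0.02 over all genes.

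The same untested pattern was found for 5 of the genes chosen by rule. Below the wild type in isp-1 and above it in gas-1 and mev-1 were F19C7.2 at -1.94, the aspartyl protease asp-12 at -1.12, the cysteine protease cpr-2 at -2.35 and the insulin-like peptide ins-7 at -1.85. The aspartyl protease asp-13 had the opposite layout, at 1.01. For scale, 1199 of all genes (9.49%) lay above the wild type in isp-1 and below it in both others, and 701 (5.55%) the reverse.

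Among 1108 probe sets with several or no gene symbol, which the comparisons leave out, 36 stood at least 2-fold higher in isp-1 than in the K12 wild type and 17 at least 2-fold lower, from -3.22 to 4.71.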

How the results depend on the processing

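The 304 higher and 282 lower genes became 152 and 162 with the filter at the median, 816 and 920 at 1.5-fold, 597 and 549 against the HT115 wild type (205 and 102 of them shared), and 197 higher with the brighter value required to exceed the overall median, an alternative chosen after seeing the data. They stayed within 1.5 times with values as deposited, median centring, no filter, the mean over probe sets, each probe set on its own and the mean of both wild types (360 and 243, of which 237 and 131 were shared). The 8 genes higher and 0 lower by limma than in gas-1 and mev-1 became 72 and 3 with no filter, 0 higher with the filter at the median or the spread of gas-1 and mev-1 alone, 5 higher with median centring or without the trend, 1 lower with values as deposited, and 2 higher with the filter set on the other 9 arrays, also chosen after seeing the data. Leaving out 1 array gave 5 to 33 higher and 0 to 38 lower. Against the HT115 wild type, 91 named genes and 10 list medians moved by more than the spread, besides the following. There the medians of lipases (0.12), sperm (0.20), neuron (0.30) and neuropeptide genes (0.99) changed sign, and the last also against the mean of both wild types (0.48), counting medians of at least 0.1 in size on both sides, and 13 smaller ones changed sign against the HT115 wild type too. Among named genes with a difference of at least 1, so did T05H4.4 (0.05), asp-9 (0.13), cnc-2 (-0.80), col-183 (0.96), col-51 (1.2), cpr-2 (0.28), flp-17 (0.56), grl-23 (2.33, and 0.52 against both wild types), ilys-3 (0.54), nhr-206 (0.01), ptr-3 (1.71 and 0.25) and spp-11 (2.22 and 0.07). Culture and control array cannot be told apart in these, and the cause of the other shifts was not tested. No paired analysis was possible because isp-1 and its wild type are 1 array each and the replicate numbers only name the arrays.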
